A study of Homo sapiens with 8 samples.

Results

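The 10 genes described here encode vascular endothelial growth factors (VEGF), angiopoietin-type factors, and receptors and co-receptors of VEGF. Their RNA was measured in the human glioblastoma lines T98 and U87 with and without knockdown of LKB1. The genes are the ligands VEGFA, VEGFB, VEGFC, PGF, ANGPT1 and ANGPTL4, the receptor tyrosine kinases FLT1 and KDR, and the co-receptors NRP1 and NRP2. They were taken by symbol from a deposited expression table of 18787 gene symbols, and all 10 were among the 14282 symbols that were tested, those with a normalised value of 10 in at least 2 libraries. PGF, FLT1 and KDR reached that value in 1 of the lines only. LKB1, encoded by STK11, is a kinase that activates AMPK and related kinases. Each line received control siRNA or LKB1 siRNA with Lipofectamine RNAiMAX in DMEM with serum and antibiotics, and total RNA was taken at 72 h. Each of the 4 groups (T98 control siRNA, T98 LKB1 siRNA, U87 control siRNA, U87 LKB1 siRNA) held 2 libraries. The sequence and number of siRNAs were not given in the sources used here, no untransfected cells entered the comparisons, and each line stands for itself alone.

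In every group 1 library was sequenced on lane 2, and the other on lane 4 (T98) or lane 5 (U87), as the column names give it. Libraries are named below by line, siRNA and lane. No label says whether the duplicates came from separate cultures, so the spread behind every p-value is that between 2 libraries and may be technical. Recovered totals ran from 25234334 to 38031736 reads per library. STK11 was between 1999 and 2445 normalised reads in the control libraries and between 339.9 and 587.6 in the LKB1 siRNA libraries, without overlap. Of the glial and glioblastoma markers, VIM (34020 to 292300) and CD44 (37280 to 63020) were abundant, the astrocyte gene GFAP stayed between 1.85 and 50.7, and S100B and SOX2 did not pass 3.48 in any library. The endothelial defining genes PECAM1 and CDH5 did not pass 28.9 and 18.8, whereas TEK, the receptor of ANGPT1, ran from 33.6 to 190.1 in T98 and from 165.1 to 245 in U87. The leukocyte genes PTPRC and CD14 did not pass 9.63 and 26.1.

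VEGFA is the main secreted signal by which hypoxic tissue calls in blood vessels, and glioblastoma is known for its high VEGFA output and dense abnormal vessels. It signals chiefly through KDR on endothelial cells, whereas FLT1 binds VEGFA, VEGFB and PGF tightly and also exists as a secreted form that captures ligand. NRP1 and NRP2 lack a kinase of their own, present VEGF to the kinase receptors and also bind semaphorins. ANGPT1 activates the receptor TEK and steadies vessels, and ANGPTL4, a related secreted protein induced by hypoxia and by PPAR receptors, inhibits lipoprotein lipase.

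The first comparison set the control libraries of T98 and U87 against each other. U87 held far more VEGFA, PGF, ANGPTL4, NRP1, NRP2 and KDR, and T98 held more FLT1. These 7 genes passed limma-trend without a lane term, 6 lower and 1 higher in T98, and VEGFB, VEGFC and ANGPT1 did not pass. Over all 14282 genes, 19.5% were lower and 18.3% higher in T98 by the same rule. PGF, FLT1 and KDR were tested only because 1 line reached the minimum value, so these 3 had to differ and their calls are given as description. Fold changes are on the scale of log2(value + 1). In bulk RNA, fewer cells with a transcript and less of it per cell cannot be told apart.

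Among the ligands, VEGFA (NM_003376, chr6:43737946-43754223, plus strand, hg19) was the most abundant of the 10 per kilobase of transcript in U87. Its normalised values were 1772 and 1512 in the T98 control libraries (lanes 2 and 4) and 26190 and 28040 in the U87 control libraries (lanes 2 and 5). The lines did not overlap and the lanes of each line lay close together. VEGFA was 16.5-fold lower in T98 (log2 difference −4.05, SE 0.174, limma adjusted p = 3.83e-05). On the scale of normalised reads per kilobase, the U87 controls held 7389 ± 356.1 (SD, n = 2), above 98.4% of the genes tested, and the T98 controls held 447.5 ± 49.97, above 64.2%.

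VEGFB (NM_003377, chr11:64002056-64006736, plus strand), a ligand of FLT1 and NRP1, was not called between the lines. Its values were 1732 and 1876 in the T98 controls and 1965 and 1700 in the U87 controls, so the lines overlapped (log2 difference −0.02, SE 0.179, limma adjusted p = 0.938). The ratio of VEGFA to VEGFB per kilobase was 0.505 and 0.398 in the T98 control libraries and 6.58 and 8.14 in the U87 control libraries. VEGFB was therefore the more abundant of the pair in T98 and VEGFA in U87, in both control libraries of each line.

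VEGFC (NM_005429, chr4:177604691-177713895, minus strand), the growth factor of lymphatic vessels, was 1421 and 951.2 in the T98 controls and 3268 and 1333 in the U87 controls. The lane 5 library of U87 lay within the range of T98. The log2 difference of −0.84 (SE 0.506) did not pass without a lane term (limma adjusted p = 0.224). With a lane term for each line, the controls are compared at their fitted level on lane 2, to which all libraries of a line contribute. That difference was −1.04 (SE 0.179, limma adjusted p = 0.0016), where the lane 2 control libraries themselves differed by −1.20. The call was lost without the U87 control library of lane 2 (−0.74).

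PGF (NM_002632, chr14:75408533-75422467, minus strand), placental growth factor, a ligand of FLT1, was nearly silent in T98. The T98 control libraries held 1 and 4 reads, against values of 261.9 and 423.9 in the U87 controls. Over both control libraries the ratio of U87 to T98 was 138 (95% counting interval 58.9 to 426.9, 692 against 5 reads). Counting intervals cover counting error only.

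ANGPT1 (NM_001199859, chr8:108261710-108510254, minus strand) had 1119 and 3770 in the T98 controls and 976.3 and 290.1 in the U87 controls. All T98 values lay above all U87 values, but by very different amounts: the log2 difference between the lines was 0.20 on lane 2 and 3.70 between lanes 4 and 5. The fitted difference of 1.95 (SE 0.861) missed the threshold (limma adjusted p = 0.113), and so did that of the lane-term fit (0.32, limma adjusted p = 0.16). DESeq2 on recovered reads called it higher in T98 (1.94, SE 0.753, adjusted p = 0.0267).

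ANGPTL4 (NM_139314, chr19:8429011-8439257, plus strand) was 24.8 and 448.4 in the T98 controls and 1513 and 4995 in the U87 controls. The lines did not overlap, although the lanes of T98 alone differed 17.4-fold. Only 0.399% of the genes tested differed more between those T98 libraries. ANGPTL4 was 25.5-fold lower in T98 without a lane term (log2 difference −4.68, SE 1.45, limma adjusted p = 0.0382). The difference was −5.88 on lane 2 and −3.48 between lanes 4 and 5. The call was lost when the T98 control library of lane 2 (−2.61, limma adjusted p = 0.196), the U87 control library of lane 2 (−5.54, limma adjusted p = 0.0647) or the U87 control library of lane 5 (−3.81, limma adjusted p = 0.147) was left out. It held in the lane-term fit without any 1 of the 8 libraries.

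The kinase receptors were near the limit of detection in the opposite lines. FLT1 (NM_001160030, chr13:28874483-29069265, minus strand) was 56.5 and 65.5 in the T98 controls, and the U87 controls held 1 read each. The ratio of T98 to U87 was 61.1 (95% counting interval 16.6 to 510.2, 122 against 2 reads). KDR (NM_002253, chr4:55944426-55991762, minus strand) was the mirror image, with 1 read in each T98 control library and values of 149.9 and 162.3 in the U87 controls. The ratio of U87 to T98 was 156 (95% counting interval 42.8 to 1292, 312 against 2 reads). The fitted log2 differences, T98 minus U87, were 4.95 for FLT1 and −6.29 for KDR, and both depend on the added constant. Even where present both receptors were scarce, at 5.07 normalised reads per kilobase for FLT1 in T98 and 25.7 for KDR in U87, above 11.8% and 19.7% of the genes tested. The FLT1 level per kilobase rests on the deposited length of 12042 bases. With 1 value per library for FLT1, its secreted form and its kinase receptor form cannot be told apart.

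Endothelial cells express both receptors, so the whole list of 11 endothelial markers stands beside these values. Its summed level was 370.2 and 704.7 in the T98 controls and 314.8 and 376.3 in the U87 controls, overlapping between the lines. Most of the T98 sum was EGFL7, at 219.7 to 422.6 in T98 and at most 3.48 in U87. PECAM1 ran from 0.0692 to 9.57 in T98 and from 10.5 to 28.9 in U87, and CDH5 from 0.0148 to 10.3 and from 9.66 to 18.8. The part of other cells in the receptor values was not tested.

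The promoters of FLT1, KDR and ANGPTL4 are shown because each receptor was found almost only in 1 of the lines, in opposite lines, and because ANGPTL4 spread most between lanes. They come from RefSeq (GRCh38.p14), which held 8 promoters for 7 of the 10 genes, with VEGFA, ANGPT1 and NRP1 not matched. Each window runs from 250 bases before to 50 bases after the start of transcription, 5′ to 3′ on the strand of the gene. Capitals mark matches, on either strand, to 4 motifs: the cyclic AMP response element TGACGTCA, the core of the hypoxia response element ACGTG, the GC box GGGCGG and the TATA box TATAAA. These letters occurred in 1.85%, 21.4%, 45.0% and 11.5% of 35116 promoters of this length. The windows lie at chr13:28495079-28495378 (FLT1, minus strand), chr4:55125546-55125845 (KDR, minus strand) and chr19:8363905-8364204 (ANGPTL4, plus strand).
FLT1: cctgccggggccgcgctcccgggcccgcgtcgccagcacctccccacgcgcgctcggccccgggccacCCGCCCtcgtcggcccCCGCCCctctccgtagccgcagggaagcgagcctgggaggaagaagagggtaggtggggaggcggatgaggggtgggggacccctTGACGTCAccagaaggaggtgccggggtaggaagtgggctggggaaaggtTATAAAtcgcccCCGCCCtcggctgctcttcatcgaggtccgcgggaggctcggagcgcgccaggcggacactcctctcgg
KDR: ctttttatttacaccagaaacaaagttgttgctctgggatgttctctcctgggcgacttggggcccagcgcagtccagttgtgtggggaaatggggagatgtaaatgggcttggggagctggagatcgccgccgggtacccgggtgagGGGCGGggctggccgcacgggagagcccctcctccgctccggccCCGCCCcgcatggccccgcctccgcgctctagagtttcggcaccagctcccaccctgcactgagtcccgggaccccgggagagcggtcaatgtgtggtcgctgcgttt
ANGPTL4: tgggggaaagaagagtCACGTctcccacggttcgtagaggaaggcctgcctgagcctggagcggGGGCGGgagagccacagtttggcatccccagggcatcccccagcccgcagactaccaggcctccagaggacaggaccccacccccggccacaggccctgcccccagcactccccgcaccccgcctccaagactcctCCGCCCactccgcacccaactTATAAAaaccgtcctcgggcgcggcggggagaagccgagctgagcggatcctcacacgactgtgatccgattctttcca
The FLT1 window held the cyclic AMP response element from 81 bases before the start, a TATA box from 31 bases before it, and 3 GC boxes on the opposite strand. The KDR window held 2 GC boxes and none of the other 3 motifs. The ANGPTL4 window held the hypoxia core on the opposite strand from 234 bases before the start, 2 GC boxes, and a TATA box from 29 bases before it. A match of letters is no evidence of binding, and the files hold no binding data.

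Per kilobase, the co-receptors were far above the kinase receptors in both lines. NRP1 (NM_003873, chr10:33466419-33623833, minus strand) was 4794 and 3695 in the T98 controls and 23120 and 15240 in the U87 controls. It was 4.46-fold lower in T98 (log2 difference −2.16, SE 0.311, limma adjusted p = 0.00181). NRP2 (NM_201267, chr2:206547224-206662857, plus strand) was 1302 and 658.8 in the T98 controls and 12150 and 14100 in the U87 controls. It was 14.1-fold lower in T98 (log2 difference −3.82, SE 0.374, limma adjusted p = 0.000318). Neither gene overlapped between the lines. Per kilobase, NRP1 exceeded NRP2 by 4.80 and 7.32 times in the T98 control libraries and by 2.48 and 1.41 times in those of U87.

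**Figure D1:**
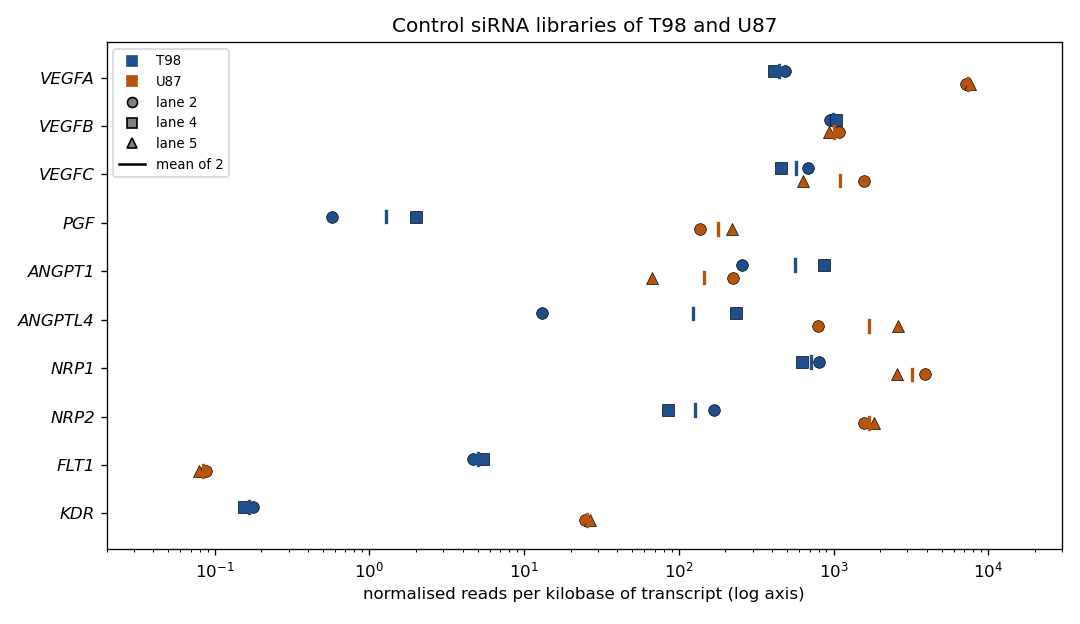
Level of the 10 genes in the control siRNA libraries, as normalised reads per kilobase of transcript on a log axis. Circles, squares and triangles are libraries of lanes 2, 4 and 5, blue is T98, orange is U87, and short vertical bars are means of 2 libraries. VEGFA reached 7389 in U87 and 447.5 in T98, VEGFB coincided, and FLT1 and KDR fell to 0.0834 in U87 and 0.166 in T98.

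The order of the levels differed between the lines. In the U87 controls, the mean per kilobase fell from VEGFA (7389) through NRP1 (3234), ANGPTL4 (1704), NRP2 (1696), VEGFC (1103) and VEGFB (1011) to PGF (178.8), ANGPT1 (145.7), KDR (25.7) and FLT1 (0.0834). ANGPTL4, NRP2, VEGFC and VEGFB lay within 1 SD (the larger of a pair) of their neighbours in that order, as did PGF and ANGPT1. In the T98 controls it fell from VEGFB (995.6) through NRP1 (715.6), VEGFC (568.6), ANGPT1 (562.4) and VEGFA (447.5) to NRP2 (126.7), ANGPTL4 (123.9), FLT1 (5.07), PGF (1.28) and KDR (0.166). NRP1, VEGFC, ANGPT1 and VEGFA lay within 1 SD of their neighbours there, as did NRP2, ANGPTL4 and FLT1, and the SDs of ANGPT1 (431.2) and ANGPTL4 (156.8) were close to or above their means.

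The second comparison asked whether knockdown of LKB1 moved these genes. VEGFA, PGF, ANGPTL4, NRP1 and NRP2 were higher after LKB1 siRNA in all 4 pairs of LKB1 and control libraries from the same line and lane, 5 of 10 genes against 21.7% of all genes tested. For PGF the T98 lane 2 pair was 1 read against 1 and its sign cannot be read, which leaves 4 genes. Without a lane term none of the 10 passed limma-trend in T98 (0.028% of all genes passed) or in U87 (0.056%). At an unadjusted p under 0.05, 0 genes of the 10 stood in T98 and 1, VEGFA, in U87. The edgeR and DESeq2 tests on recovered reads called 0 of the 10 in either line. With a lane term, 3 were called higher in T98 (ANGPT1, ANGPTL4 and NRP2) against 8.48% of all genes, and 2 in U87 (VEGFA and NRP1) against 5.29%. None was called lower in either fit.

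VEGFA was higher in every LKB1 siRNA library than in either control library of its line, and rose in U87 in the lane-term fit. Its values were 1772 and 1512 in control T98 and 2200 and 1969 in LKB1 siRNA T98 (lanes 2 and 4). In U87 they were 26190 and 28040 in control and 37580 and 36390 in LKB1 siRNA libraries (lanes 2 and 5). Lane by lane, the log2 difference in T98 was 0.31 and 0.38, and in U87 it was 0.52 and 0.38. In U87 the mean difference of 0.45, a 1.36-fold rise, had SE 0.174 without a lane term (limma adjusted p = 0.472) and SE 0.114 with it (limma adjusted p = 0.0464). In T98 the difference of 0.35 passed in neither fit (limma adjusted p = 0.54 and 0.0774). Leaving out any 1 U87 library ended the U87 call, and leaving out any T98 library kept it (limma adjusted p from 0.0285 to 0.635).

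VEGFB and VEGFC were not called after LKB1 siRNA. VEGFB was 2197 and 1958 in LKB1 siRNA T98 and 1922 and 1782 in LKB1 siRNA U87, and VEGFC was 1754 and 997.9 in T98 and 2787 and 1503 in U87. The log2 differences per lane were 0.34, 0.06, −0.03 and 0.07 for VEGFB and 0.30, 0.07, −0.23 and 0.17 for VEGFC (T98 lanes 2 and 4, U87 lanes 2 and 5). Both T98 libraries of VEGFB lay above both controls, and neither gene passed either fit in either line. The VEGFA to VEGFB ratio per kilobase was 0.494 and 0.497 in LKB1 siRNA T98 and 9.66 and 10.1 in LKB1 siRNA U87.

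PGF in U87 was 261.9 and 423.9 in control and 617.9 and 727.8 in LKB1 siRNA libraries. The groups did not overlap, and the log2 difference was 1.24 on lane 2 and 0.78 on lane 5. The mean difference of 1.01, a 2.01-fold ratio, did not pass without a lane term (SE 0.677, limma adjusted p = 0.862) or with it (SE 0.29, limma adjusted p = 0.0678). It passed with a lane term when 8 was added in place of 1 (limma adjusted p = 0.0174) and by edgeR (adjusted p = 0.00729). In T98, PGF had 1 and 4 reads in control and 1 and 6 in LKB1 siRNA libraries, too few to read a change.

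ANGPT1 rose in T98, in the fit with a lane term only. It was 1119 and 3770 in control and 2193 and 7204 in LKB1 siRNA T98 (lanes 2 and 4), nearly the same ratio on each lane (log2 0.97 and 0.93). The groups overlapped because lane 4 was 3.37-fold above lane 2 in the control and 3.28-fold in the LKB1 siRNA libraries. The difference of 0.95, a 1.93-fold rise, passed with a lane term (SE 0.149, limma adjusted p = 0.0107) and not without it (SE 0.861, limma adjusted p = 0.758). In U87 it was 976.3 and 290.1 in control and 808.9 and 329.1 in LKB1 siRNA libraries, with opposite signs on the lanes (−0.27 and 0.18) and no call. There the lane order was the reverse of T98, with lane 5 lower by 3.36-fold in the control and 2.45-fold in the LKB1 siRNA libraries.

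ANGPTL4 had the largest fitted rise of the 10 in T98 and the widest spread between lanes. It went from 24.8 to 112.3 on lane 2 and from 448.4 to 752.6 on lane 4, log2 differences of 2.14 and 0.75. Both lane 4 libraries lay above both lane 2 libraries, so the groups overlapped. The mean of 1.44, a 2.71-fold rise, passed with a lane term (SE 0.29, limma adjusted p = 0.0208) and not without it (SE 1.45, limma adjusted p = 0.795). In U87 it was 1513 and 4995 in control and 1608 and 6215 in LKB1 siRNA libraries (0.09 and 0.32), and had no call. The T98 calls of ANGPT1 and ANGPTL4 in the lane-term fit were kept without either lane 4 library of T98, where ANGPTL4 was 2.14, and lost without any 1 of the other 6. Without either lane 2 library of T98, ANGPTL4 was 0.75.

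**Figure D2:**
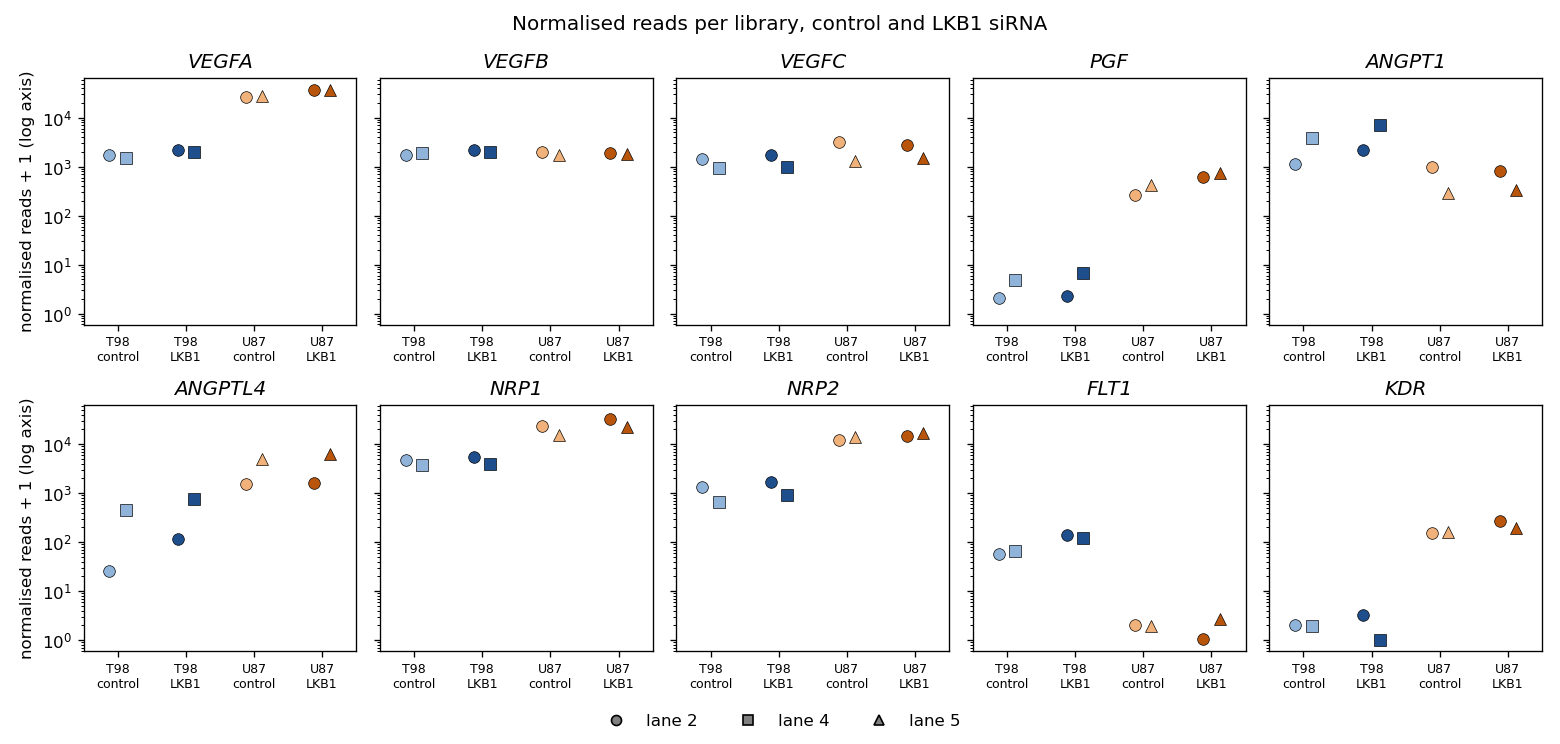
Normalised reads plus 1 of each gene in the 8 libraries, on a log axis shared by all panels. Circles, squares and triangles are libraries of lanes 2, 4 and 5, pale points are control siRNA and dark points LKB1 siRNA, blue for T98 and orange for U87. VEGFA lay higher in all LKB1 siRNA libraries of its line, whereas ANGPTL4 and ANGPT1 followed the lane more than the siRNA.

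The co-receptors were higher after LKB1 siRNA in every pair. NRP1 was 4794 and 3695 in control and 5586 and 3933 in LKB1 siRNA T98, and 23120 and 15240 in control and 32600 and 22040 in LKB1 siRNA U87. Within lanes the log2 difference was 0.22 and 0.09 in T98 and 0.50 and 0.53 in U87. In U87 the mean of 0.51, a 1.43-fold rise, passed with a lane term (SE 0.114, limma adjusted p = 0.0294) and not without it (SE 0.311, limma adjusted p = 0.818). That call, like the U87 call of VEGFA, was lost without any 1 U87 library. In T98 the difference of 0.16 passed in neither fit.

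NRP2 was 1302 and 658.8 in control and 1679 and 932.7 in LKB1 siRNA T98, and 12150 and 14100 in control and 14820 and 16560 in LKB1 siRNA U87. The U87 groups did not overlap and the T98 groups did. Within lanes the log2 difference was 0.37 and 0.50 in T98 and 0.29 and 0.23 in U87. In T98 the mean of 0.43, a 1.35-fold rise, passed with a lane term (SE 0.114, limma adjusted p = 0.0431) and not without it (limma adjusted p = 0.741), and the call was lost without any 1 of the 8 libraries (limma adjusted p from 0.0949 to 0.182). In U87 the mean of 0.26 did not pass.

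For the kinase receptors only 1 line gave readable values. FLT1 in T98 was 56.5 and 65.5 in control and 139 and 118.2 in LKB1 siRNA libraries, without overlap (log2 1.28 and 0.84). The mean of 1.06, a 2.09-fold ratio, did not pass without a lane term (SE 0.653, limma adjusted p = 0.63) or with it (SE 0.463, limma adjusted p = 0.149). It passed with a lane term when 8 was added in place of 1 (limma adjusted p = 0.0224) and by edgeR (adjusted p = 0.0307). In U87, FLT1 had 1 and 1 reads in control and 0 and 2 in LKB1 siRNA libraries.

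KDR in U87 was 149.9 and 162.3 in control and 268.8 and 196.4 in LKB1 siRNA libraries, again without overlap (log2 0.84 and 0.27), and the mean of 0.56 did not pass either fit (limma adjusted p = 0.981 and 0.479). In T98, KDR had 1 and 1 reads in control and 2 and 0 in LKB1 siRNA libraries. The summed endothelial markers in the LKB1 siRNA libraries were 462.7 and 648.1 in T98 (lanes 2 and 4) and 385.9 and 547.7 in U87 (lanes 2 and 5), above the control of the same lane in 3 of 4 pairs. Of these markers, CDH5 was called higher in T98 (1.86, limma adjusted p = 0.0372 with a lane term), at 0 and 2 reads in control and 2 and 11 in LKB1 siRNA libraries. ERG, an endothelial transcription factor, was called higher in the mean (0.97, limma adjusted p = 0.0334 with a lane term). It was higher in all 4 pairs, as were 21.7% of all genes. In T98 it had 7 and 4 reads in control and 16 and 6 in LKB1 siRNA libraries. None of the 9 endothelial markers tested passed without a lane term. The part of these markers in the receptor values was not tested.

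Counting groups that did not overlap, VEGFA, VEGFB and FLT1 had both LKB1 siRNA libraries above both controls in T98, 3 of 10 against 20.5% of all genes. In U87 these were VEGFA, PGF, NRP2 and KDR, 4 of 10 against 17.6%. VEGFA was on both lists.

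**Figure D3:**
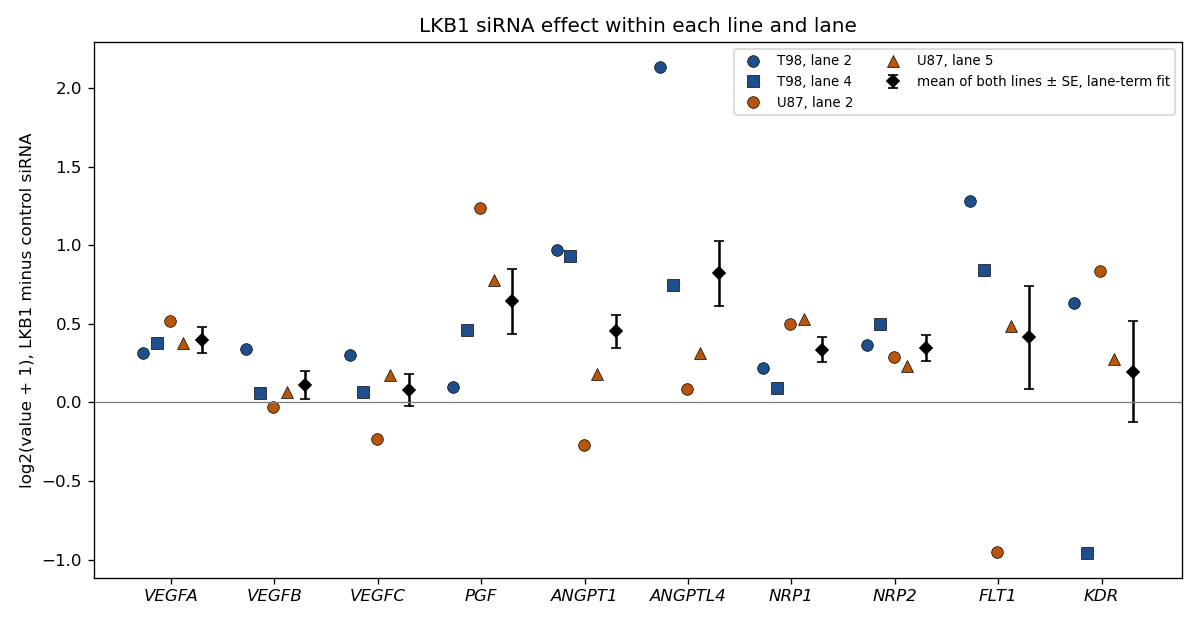
Difference between LKB1 and control siRNA on the scale of log2(value + 1), for each line and lane. Circles, squares and triangles are lanes 2, 4 and 5, blue is T98, orange is U87, and black diamonds are the mean over both lines with bars of 1 SE from the lane-term fit. VEGFA was the tightest at 0.31 to 0.52, and the low points of FLT1 in U87 and KDR in T98 come from libraries with 0 to 2 reads.

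Averaged over both lines, all 10 genes had a positive fitted difference, against 50.4% of all genes, with a median of 0.37 against 0.00412. By line, 9 of the 10 were positive in T98 and 7 in U87, against 52.1% and 49.8% of all genes. The means of PGF and KDR take in T98, and that of FLT1 takes in U87, at 0 to 6 reads a library. ANGPT1 was at 0.95 in T98 and −0.04 in U87, so its mean does not describe both lines. None of the 10 means passed without a lane term, where 1.86% of all genes did. VEGFA had the smallest limma p (unadjusted p = 0.0129, adjusted p = 0.17), was the 1 gene of the 10 with an unadjusted p under 0.05, and was called by DESeq2 (0.41, adjusted p = 0.0381), whereas edgeR called 0 of the 10. With a lane term 5 of 10 passed, against 13.2% of all genes called higher: VEGFA at 0.40 (SE 0.0808, limma adjusted p = 0.0119), ANGPT1 at 0.45 (limma adjusted p = 0.0188), NRP2 at 0.35 (limma adjusted p = 0.0191), NRP1 at 0.33 (limma adjusted p = 0.0214) and ANGPTL4 at 0.82 (limma adjusted p = 0.0244). PGF at 0.64 missed the threshold (limma adjusted p = 0.0548). Leaving out each library in turn, the lane-term calls of VEGFA, ANGPTL4 and NRP2 were kept in 4 of 8 fits, those without a T98 library, and the calls of ANGPT1 and NRP1 in 2 of 8, those without a lane 4 library of T98.

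Whether the response differed between the lines was tested as T98 minus U87. None of the 10 differed without a lane term, where 0% of all genes passed and 0 of the 10 had an unadjusted p under 0.05. With a lane term 0.476% of all genes passed and again none of the 10, although 2 had an unadjusted p under 0.05. The nearest was ANGPT1, higher by 1.00 in T98 (SE 0.21, limma adjusted p = 0.0972), then ANGPTL4, higher by 1.24 in T98 (SE 0.41, limma adjusted p = 0.239), which passed without either lane 4 library of T98 (1.93, limma adjusted p = 0.0469 and 0.047). The T98 calls of ANGPT1 and ANGPTL4 and the U87 calls of VEGFA and NRP1 are therefore not shown to be particular to a line. In the same lane-term fit, between the control groups, 7 of the 10 genes were lower and 1 higher in T98, against 32.6% and 30.7% of all genes. These counts include PGF, FLT1 and KDR, which passed the filter through 1 line only and had to differ, so their calls are description.

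The other genes of these pathways were read from 8 lists. In the mean effect of the lane-term fit, which called 1886 of 14282 genes higher and 1879 lower, 13 of 29 hypoxia genes, the company of VEGFA and ANGPTL4 in low oxygen, were higher and 0 lower, with a median of 0.20. 12 of the 29 were higher in all 4 pairs, against 21.7% of all genes, and 1 was lower in all 4. Without a lane term none of the 29 passed. LOX, which crosslinks collagen, rose by 0.91 (SE 0.109, limma adjusted p = 0.00197 with a lane term), from 3123 and 7008 to 6365 and 9683 in T98 and from 25840 and 37160 to 51850 and 81210 in U87. STC1, a secreted glycoprotein, rose by 0.80 (SE 0.0949, limma adjusted p = 0.00182 with a lane term), with lane differences of 1.00 and 0.64 in T98 and 0.71 and 0.86 in U87. The carbonic anhydrase CA9 rose by 1.60 in T98 (limma adjusted p = 0.0118 with a lane term) and by 1.03 in U87 (limma adjusted p = 0.0449). CA12, another carbonic anhydrase, rose by 0.70 in U87 (limma adjusted p = 0.0096 with a lane term) and was at 0.33 in T98 without a call (limma adjusted p = 0.0849). Between the control libraries, 19 of the 29 were lower and 1 higher in T98 without a lane term, against 19.5% and 18.3% of all genes, with a median of −1.34.

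Of 24 regulators of VEGFA transcription, 2 were higher and 1 lower in the mean effect with a lane term, and the median was 0.03. Over all genes 13.2% were called higher. ARNT2, a partner of the HIF alpha subunits, rose by 1.06 (SE 0.102, limma adjusted p = 0.00106 with a lane term), and its lane differences were 0.51 and 0.87 in T98 and 1.496 and 1.37 in U87. ARNT, the other partner, was at −0.33 in the mean (limma adjusted p = 0.033 with a lane term). It was at −0.56 in T98 and −0.095 in U87 (limma adjusted p = 0.028 and 0.677 with a lane term). The difference between the lines did not pass (limma adjusted p = 0.291 with a lane term). TFAP2A rose by 0.63 (limma adjusted p = 0.00851 with a lane term). Of 13 PPAR targets, the other regulatory company of ANGPTL4, 1 was higher and 1 lower: the transcription factor CREB3L3 at 1.00 and the fatty acid thiolase ACAA2 at −0.31. CREB3L3 was at 1.72 in T98, on 0 and 5 reads in control and 3 and 14 in LKB1 siRNA libraries. In U87 it was at 0.28 (limma adjusted p = 0.706 with a lane term), so its mean rests on few reads and does not describe both lines.

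Among 6 other ligands of the families that were tested, ANGPTL2, a secreted angiopoietin-like protein, was called higher (0.71, SE 0.137, limma adjusted p = 0.00967 with a lane term) and 0 lower. Its lane differences were 1.71 and 0.93 in T98 and 0.0015 and 0.21 in U87, and the difference between the lines did not pass (1.22, limma adjusted p = 0.112 with a lane term). Of 17 other receptors and co-receptors, 5 were higher and 3 lower, where 1886 of all 14282 genes were higher and 1879 lower. The heparan sulphate carrier SDC2 was at 0.65 and the PDGF receptor PDGFRB at 0.49, while GPC1 was at −0.35, SDC4 at −0.33 and the ephrin ligand EFNB2 at −0.37. SDC2 was at 1.04 in T98 and 0.26 in U87 (limma adjusted p = 0.0119 and 0.376 with a lane term). Its difference between the lines did not pass (limma adjusted p = 0.209 with a lane term). SDC4 was at −0.65 in T98 and −0.0026 in U87, and EFNB2 at −1.25 in T98 and 0.50 in U87, so neither mean describes both lines. Of 12 class 3 semaphorins and plexins, with which neuropilins also work, 3 were higher and 0 lower. PLXNA2 rose by 1.47 (SE 0.127, limma adjusted p = 0.000763 with a lane term), from 280.2 and 168.9 to 933.4 and 871.4 in T98 and from 413 and 1291 to 755.4 and 2433 in U87. PLXNA3 rose by 0.63 (limma adjusted p = 0.00301 with a lane term).

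Of 42 genes of signalling below the VEGF receptors, 6 were higher and 4 lower with a lane term, and the median was 0.02. Over all 14282 genes 1886 were higher (13.2%) and 1879 lower, so the share higher was near that of all genes. In all 4 pairs 8 of the 42 were higher, 19.05% against 21.7% of all genes. The GTPase NRAS was the 1 gene of these 8 lists called without a lane term in the mean effect (−1.16, SE 0.187, limma adjusted p = 0.034). It went from 6202 and 5517 to 2126 and 3591 in T98 and from 10670 and 8780 to 3921 and 4321 in U87, without overlap in either line. With a lane term the kinase MAPK3 rose by 1.11 and the adaptor SHC1 by 0.57, and the adaptor GRB2 fell by 0.49 (limma adjusted p = 0.00178, 0.00325 and 0.00724). Of 24 secreted inhibitors and other angiogenic factors, 3 were higher and 2 lower, where 13.2% of all genes were called higher. The matrix protein SPARC and TIMP3, which blocks VEGF binding to KDR, rose by 0.48 and 0.53, and the matricellular proteins CYR61 and CTGF fell by 1.28 and 0.67 (limma adjusted p = 0.0144, 0.0178, 0.00116 and 0.00342 with a lane term).

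**Figure D4:**
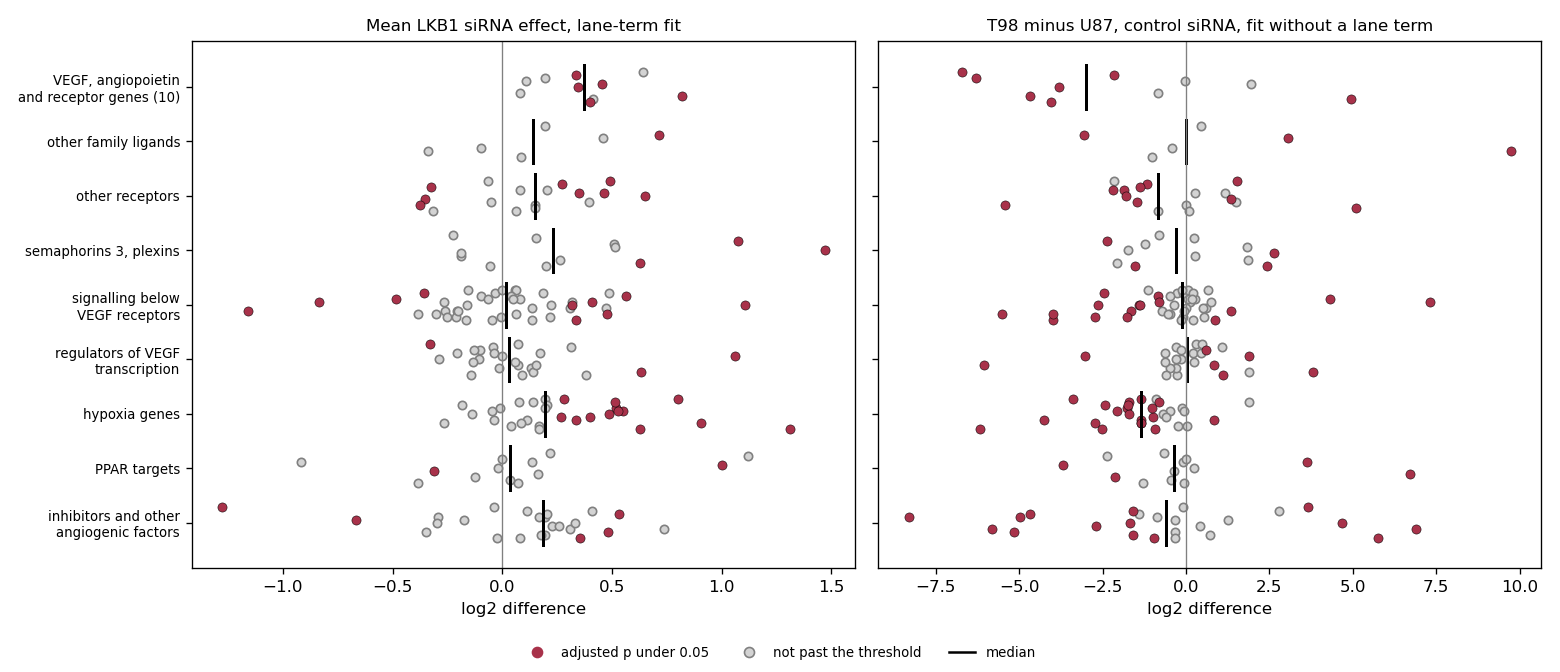
Log2 difference of each tested gene in the 10 genes and 8 related lists: left, the mean LKB1 siRNA effect in the lane-term fit, and right, T98 minus U87 among control libraries in the fit without a lane term. Each point is a gene, red points passed an adjusted p of 0.05, grey points did not, and black bars are medians. The hypoxia genes held 13 red points on the left, all above 0.

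The genes whose pattern was most like VEGFA were found over the 8 libraries after each line was centred on its own mean, among 10111 genes. They were L3HYPDH, PANK3 and WDR3, with Pearson correlations of 0.996, 0.993 and 0.991, where the hundredth gene had 0.936. For NRP1 they were FUT8, PDXDC1 and COL4A3BP at 0.988, 0.983 and 0.976, with 0.906 for the hundredth. The points share lanes, and such values are a description of 8 libraries only.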

How the data were processed

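RNA of 8 libraries was sequenced with the TruSeq RNA V2 kit, which does not keep strand, so reads of overlapping antisense transcripts cannot be told apart. Reads were processed with TopHat2 2.0.8b and edgeR on hg19/GRCh37, per the submitters' processing notes, and the sources used here give no read counter. The authors deposited normalised signal per transcript (18815 transcripts), which was read here as pseudo-counts at a common depth: with a common dispersion of 0.06803, inverting the adjustment gave whole reads (within 0.05) for 99.5% to 100% of values per library. Deposited starts were read as counted from 0, and lengths are the deposited ones.

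Symbols with a value of 10 in at least 2 libraries were tested with limma 3.58.1 in R 4.3.3, as limma-trend, on log2(value + 1) with 4 group means and 4 residual degrees of freedom, two-sided, with Benjamini-Hochberg adjustment over 14282 genes and a threshold of 0.05. A fit with a lane term for each line (2 residual degrees of freedom) stands beside it, the lanes being read from the column names. In that fit T98 against U87 compares the fitted control levels on lane 2, to which all libraries of each line contribute. Alternatives were edgeR 4.0.16 and DESeq2 1.42.0 on recovered reads, TMM log2 CPM, 8 as the added constant, no filter, the compared libraries alone and leaving out each library. The procedure was also run on simulated data, with larger changes than most of the knockdown changes called among the 10 genes. No result here rests on that run. Counting intervals (95%) are exact.

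The 10 genes and all lists were chosen with earlier results of these data known. Genes named from a list are up to 2 higher and 2 lower with the smallest adjusted p among those called by either fit in a knockdown comparison. Promoter sequences are from RefSeq (GRCh38.p14).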

Additional observations from a re-analysis of the deposited data

Results flagged for a closer look

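None of the 10 genes differed between the lines in its response by a test or in the sign of every library pair. Of the genes named from the related lists and markers, 2 list genes and 1 pericyte marker did. This count does not cover the unnamed list genes, and the share of all genes with opposite signs was not counted. Of the 17 other receptors and co-receptors, 7 had a positive difference in T98 and 15 in U87, against 52.1% and 49.8% of all genes. Whether this list differed between the lines was not tested. EFNB2, the ephrin ligand of EPHB4, fell in T98 in the lane-term fit. It went from 103.3 and 66.4 to 42.0 and 27.9 in T98 (lanes 2 and 4) and from 3081 and 4148 to 4543 and 5646 in U87 (lanes 2 and 5). The difference of the effects, T98 minus U87, was −1.75 (SE 0.21, limma adjusted p = 0.0348 with a lane term and 1.00 without it).

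THBS2, an inhibitor of vessel growth, was lower in both T98 pairs and higher in both U87 pairs, a difference of −1.57 that did not pass (limma adjusted p = 0.0777 with a lane term). The T98 values were low, at 28.9 and 42.8 in control and 22.8 and 23.3 in LKB1 siRNA libraries. ACTA2, a pericyte and smooth muscle marker, did the same with a difference of −1.36 (limma adjusted p = 0.0653 with a lane term), from 167.5 and 437.8 to 81.2 and 156.5 in T98 and from 2213 and 1272 to 2265 and 1426 in U87.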

How the results depend on the processing

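Most calls depended on the lane term. Adding the lane term, which is a replicate block by lane, moved the counts of genes called in T98 from 4 to 2258, in U87 from 8 to 1599, in the mean from 265 to 3765, in the difference between the lines from 0 to 68 and between the controls from 5386 to 9037. Of the 10 genes, those called went from 0 to 3 in T98, from 0 to 2 in U87 and from 0 to 5 in the mean. Without the lane term, dropping the filter gave 13, 30, 148 and 23 genes in T98, U87, the mean and the difference, and the compared libraries alone gave 0 in T98 and 0 in U87. DESeq2 gave 348, 495, 1034 and 12 genes and called 1 of the 10 in the mean, and edgeR gave 0 in U87. With a lane term, the difference had 104 genes with 8 added, 21 by TMM log2 CPM and 148 by edgeR. With another added constant or a count test, signs turned at near-zero reads: KDR in T98 was 0.0052 with 8 added in either fit, 0.053 by edgeR and 0.042 with its lane term, and 0.052 by DESeq2, and FLT1 in U87 was 0.032 by DESeq2. Taking lane 2 alone, or lanes 4 and 5 alone, gave opposite signs for VEGFB between the controls (−0.18 and 0.14) and in the difference (0.37 and −0.0059), for VEGFA in the difference (−0.21 and 0.0040), for KDR in T98 (0.63 and −0.96) and the mean (0.74 and −0.34), and for FLT1 in U87 (−0.95 and 0.49). ANGPTL4 between the controls was not called without the filter (limma adjusted p = 0.125) or by edgeR (adjusted p = 0.0795).

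Leaving out each library without a lane term gave 0 to 2 genes in T98, 0 to 0 in U87, 3 to 172 in the mean and 3156 to 5369 between the controls. Log2 values then spanned 0 in the ranges below. A line that loses a library also loses the balance of its lanes, and the part of this in each range was not tested. In T98 the ranges were −0.50 to 1.06 for PGF, −0.62 to 3.502 for ANGPTL4, −0.22 to 0.59 for VEGFC, −0.098 to 0.41 for NRP1, −0.058 to 0.92 for NRP2 and −1.004 to 0.68 for KDR. In U87 they were −0.68 to 0.62 for VEGFC, −0.92 to 0.83 for ANGPT1, −0.77 to 1.18 for ANGPTL4, −0.086 to 0.12 for VEGFB and −0.91 to 0.45 for FLT1. In the mean they were −0.21 to 1.85 for ANGPTL4, −0.24 to 0.40 for VEGFC and −0.22 to 0.62 for KDR. In the difference they were −0.22 to 0.012 for VEGFA, −0.82 to 3.30 for ANGPTL4, −0.43 to 0.86 for VEGFC, −1.51 to 0.054 for PGF, −0.32 to 0.67 for NRP2 and −1.56 to 0.12 for KDR, and between the controls −0.12 to 0.084 for VEGFB. VEGFA kept its sign in both lines, in the mean and between the controls.

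Leaving out each library with a lane term (added after the data were seen) gave 0 to 3466 genes and 0 to 2 of the 10 in T98, 0 to 2432 genes and 0 to 3 of the 10 in U87, 0 to 4750 genes and 0 to 5 of the 10 in the mean, 0 to 244 genes and 0 to 1 of the 10 in the difference, and 3462 to 9549 genes between the controls. Signs turned for KDR (T98 −0.96 to 0.63, mean −0.20 to 0.59, difference −1.51 to 0.079), VEGFB (U87 −0.032 to 0.067, controls −0.16 to 0.12), VEGFC (U87 −0.23 to 0.17, mean −0.022 to 0.18), ANGPT1 (U87 −0.27 to 0.18) and FLT1 (U87 −0.95 to 0.49). Such a fit rests on 1 pair in the line that lost a library. Depth limits FLT1 in U87, KDR in T98 and PGF in T98, at 0 to 6 reads a library.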
